A study of Homo sapiens with 18 samples.

Results

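Heat shock chaperones of the cytosol and the mitochondrion were followed in 22RV1 cells given UT-143, by 12 transcript identifiers of 7 genes that were listed by name for this purpose. The deposited table holds 11 of the 12, among 35246 transcript rows in all. They are 2 rows of HSPA8, 2 of HSP90AA1, 3 of HSP90AB1 and 1 each of HSPA1A, HSPA1B, HSPD1 and HSPB1. The second HSPD1 identifier, ENST00000345042, has no row and was not analysed here. The table pairs no row with a gene, so the gene names are those of that list.

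22RV1 is an established human prostate cancer cell line that expresses the androgen receptor together with truncated splice variants of it. UT-143 is a compound that the series title places among covalent inhibitors which react with cysteine and are aimed at those variants. RNA sequencing gave 3 libraries of cells treated with the solvent DMSO (vehicle) and 3 of cells treated with 10 µM UT-143, each for 20 to 24 hours in RPMI medium with serum. All 6 libraries come from this 1 line. The labels number the replicates without saying whether each was its own culture, and the spread behind every p-value may thus be technical.

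Chaperones bind unfolded or unfinished proteins and help them to fold, be held in an active form or be degraded. In the cytosol, Hsp70 proteins take up clients first and pass some of them, steroid receptors such as the androgen receptor included, to Hsp90, which keeps the receptor able to bind its ligand. When unfolded protein builds up, the transcription factor HSF1 is released from chaperones and binds heat shock elements, short inverted repeats of GAA and TTC, in the promoters of stress-inducible chaperone genes. HSPA1A and HSPA1B encode the stress-inducible Hsp70, HSPA8 its constitutive relative Hsc70, HSP90AA1 and HSP90AB1 the more inducible and the more constitutive cytosolic Hsp90, HSPB1 the small chaperone Hsp27, and HSPD1 the mitochondrial chaperonin Hsp60.

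The promoters are shown because the genes differ in exact matches to these elements. RefSeq (GRCh38.p14) gives 11 start sites for the 7 genes, and the 250 bases before each were searched on both strands for 3 alternating units (GAA, TTC and GAA, or TTC, GAA and TTC, with any 2 bases between units) and for 2 units (GAA and TTC, or TTC and GAA, spaced alike). Every base of a unit had to match, so elements with a changed base in a unit were not counted. A 3-unit match always holds 2 overlapping 2-unit matches. Which start each transcript row uses is not given in the sources used here. The 5 windows below run 5′ to 3′ on the strand of the gene and end at the base before the start. Capitals mark every 2-unit match. They are HSPA1A at chr6:31815293-31815542 (plus strand), HSPA1B at chr6:31827488-31827737 (plus strand), HSPA8 at chr11:123062137-123062386 (minus strand), the more downstream of the 2 starts of HSP90AA1 at chr14:102087045-102087294 (minus strand) and HSPB1 at chr7:76302423-76302672 (plus strand).
HSPA1A: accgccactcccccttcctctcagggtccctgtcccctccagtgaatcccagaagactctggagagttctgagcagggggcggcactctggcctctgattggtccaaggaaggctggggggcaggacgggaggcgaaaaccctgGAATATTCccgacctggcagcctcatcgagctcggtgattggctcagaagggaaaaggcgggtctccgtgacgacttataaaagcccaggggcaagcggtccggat
HSPA1B: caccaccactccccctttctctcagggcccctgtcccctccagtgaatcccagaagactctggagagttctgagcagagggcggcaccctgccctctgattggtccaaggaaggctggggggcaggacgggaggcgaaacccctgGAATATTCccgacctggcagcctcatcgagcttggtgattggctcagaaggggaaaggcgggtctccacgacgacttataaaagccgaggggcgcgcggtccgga
HSPA8: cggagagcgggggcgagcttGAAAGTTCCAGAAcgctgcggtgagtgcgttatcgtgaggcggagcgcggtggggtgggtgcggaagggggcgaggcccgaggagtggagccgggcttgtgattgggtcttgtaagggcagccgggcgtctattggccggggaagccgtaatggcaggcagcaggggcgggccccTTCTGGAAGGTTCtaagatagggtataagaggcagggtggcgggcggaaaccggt
HSP90AA1: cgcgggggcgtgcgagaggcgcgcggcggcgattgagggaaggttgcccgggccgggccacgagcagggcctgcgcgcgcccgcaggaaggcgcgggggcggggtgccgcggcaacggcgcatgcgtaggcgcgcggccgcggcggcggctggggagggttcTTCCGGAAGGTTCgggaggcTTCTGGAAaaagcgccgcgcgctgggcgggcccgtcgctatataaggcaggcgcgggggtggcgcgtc
HSPB1: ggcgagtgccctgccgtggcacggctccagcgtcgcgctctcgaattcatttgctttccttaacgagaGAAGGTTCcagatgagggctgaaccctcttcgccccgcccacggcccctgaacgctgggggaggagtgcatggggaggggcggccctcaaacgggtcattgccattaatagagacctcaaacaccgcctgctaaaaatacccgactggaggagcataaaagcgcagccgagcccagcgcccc

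An exact 3-unit element was found in 4 of the 11 windows, those of 4 different genes, and in 0.441% of all 35116 promoter windows in the RefSeq table. HSPA8 has 2, GAAAGTTCCAGAA at 230 to 218 bases and TTCTGGAAGGTTC at 55 to 43 bases before its start. HSP90AA1 has TTCCGGAAGGTTC at 88 to 76 bases before the downstream start. HSP90AB1 has TTCTGGAAGATTC and TTCTGGAAGCTTC before the third of its 3 starts, in chr6:44247693-44247942. HSPD1 has an overlapping TTCTGGAAAGTTC and GAAAGTTCTGGAA before the second of its 2 starts, in chr2:197499841-197500090. HSPA1A and HSPA1B hold the 2-unit GAATATTC, at 106 to 99 and 105 to 98 bases before the start, and HSPB1 holds GAAGGTTC at 182 to 175 bases. After 2 more bases, HSPA1A and HSPA1B continue with GAC and HSPB1 with GAT, each 1 base off a GAA unit. The exact search does not count such near matches, so these genes are not shown to lack a 3-unit element. A 2-unit match was found in 7 of the 11 windows, 1 for each gene, and in 11.6% of all windows. The HSPA1A and HSPA1B windows are identical at 235 of 249 aligned bases (94.4%), and the transcripts of these neighbouring genes are nearly identical too, so how their reads were divided between the rows is uncertain. These matches describe letters in a window, not binding.

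UT-143 replicate 3 stands apart from all other libraries. Its log2 values correlated across rows at 0.816 to 0.895 with the other 5, which correlated with each other at 0.953 to 0.993. Over all rows, its log2 difference from the average of the other UT-143 libraries had a standard deviation of 0.62, against 0.13 for the difference between those libraries. The change of each row is therefore given with and without it. Listed values summed to between 889253 and 900414 CPM (reads of a transcript per fixed number of reads in a library) in the other 5 libraries and to 923170 CPM in UT-143 replicate 3. Values are CPM that the authors rounded to whole numbers, so each is uncertain by up to 0.5 CPM, and the depth in reads is unknown.

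None of the 11 chaperone rows passed the test with 6 libraries: 0 were higher and 0 lower after UT-143 (limma, adjusted p under 0.05 over all rows). Over all rows 1.29% were higher and 2.08% lower. At an unadjusted p under 0.05 there were 4 chaperone rows, those of HSPA1A, HSPA1B and HSPA8, and 26.4% of all rows. Without UT-143 replicate 3 there were 7, those of HSPA1A, HSPA8, HSP90AB1 and HSPD1, and 41.4% of all rows. Without UT-143 replicate 3, HSPA1A rose and both rows of HSPA8 fell, while no row of the other 5 genes passed. The background in that fit was 8.65% of all rows higher and 14.6% lower, so 1 and 2 of 11 rows are not far from it. At an adjusted p under 0.1 with 6 libraries, HSPA1A was the 1 chaperone row called higher and 0 were called lower, against 4.25% and 6.47% of all rows. After quantile normalization HSPA1A rose, only just under the threshold (limma, adjusted p = 0.0496), against 4% of all rows higher. Both HSPA8 rows fell in that fit (limma, adjusted p = 0.014 each), against 5.58% of all rows lower. Without UT-143 replicate 3 and with trimmed mean scaling of the libraries, HSPA1A and HSPA1B rose and the rows of HSPA8 and HSPD1 fell, against 16.5% and 16.9% of all rows. HSPA1A and HSPA8, the inducible and the constitutive cytosolic Hsp70, thus have opposite signs in both fits. The median change of the 7 genes, each by its row with the highest mean, was 0.19 with 6 libraries and -0.014 without UT-143 replicate 3. The median over all rows of the table was -0.058 and -0.018 in those fits. Counted by row instead of by gene the chaperone medians were -0.14 in both fits, since HSPA8 and HSP90AB1 have several rows.

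**Figure D1:**
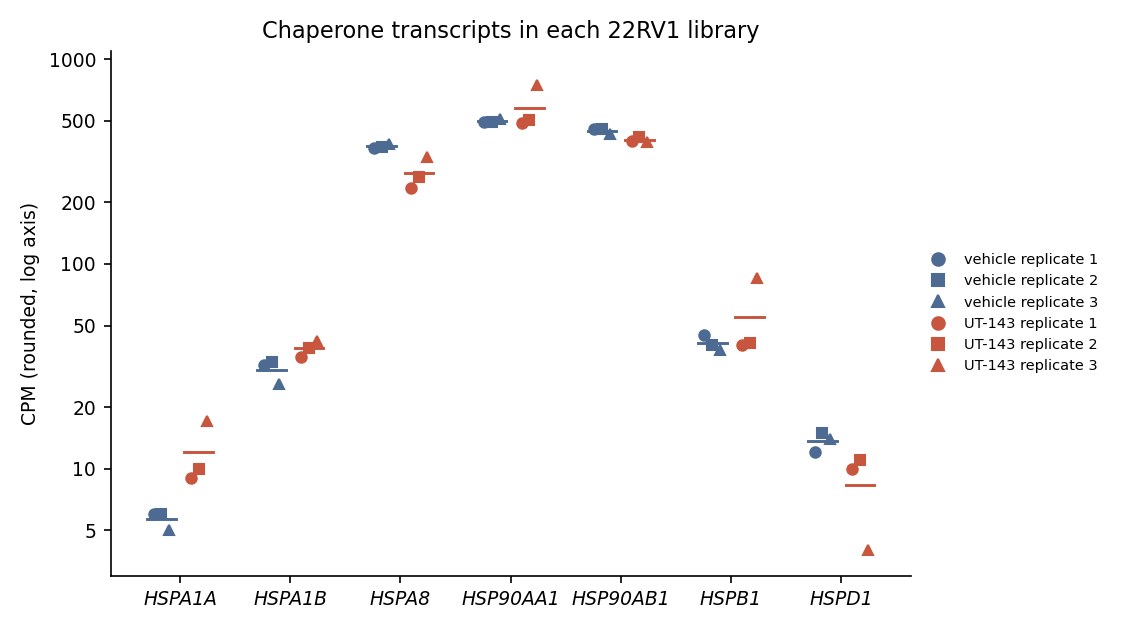
Rounded CPM of 1 row per gene in each library on a log axis. Blue marks are vehicle, red marks UT-143, shapes are replicate numbers and lines are group means. UT-143 replicate 3 (red triangle) is the highest library for HSPA1A (17 CPM), HSPA1B (42 CPM), HSP90AA1 (748 CPM) and HSPB1 (85 CPM) and the lowest for HSP90AB1 (392 CPM) and HSPD1 (4 CPM).

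HSPA1A is strongly induced by heat and other protein damage in many cells. Its row, ENST00000375651.7, was at 6, 6 and 5 CPM in vehicle replicates 1 to 3 and at 9, 10 and 17 CPM in UT-143 replicates 1 to 3. All UT-143 libraries lay above all vehicle libraries, and UT-143 replicate 3 was the highest. The means were 5.67 ± 0.58 CPM in vehicle and 12 ± 4.4 CPM after UT-143 (SD, n = 3 each), a ratio of 2.12. On the log2(CPM + 1) scale, which understates changes of low rows and is used for every change below, the difference was 0.92 ± 0.24 (SE; adjusted p = 0.088 in limma). Without UT-143 replicate 3 it was 0.66 ± 0.096 (SE; adjusted p = 0.020 in limma). At 5 or 6 CPM, rounding alone can move a vehicle value by up to 0.5 CPM, so the spread behind these SEs is uncertain. The mean of this row over the 6 libraries is under 10 CPM, where the simulated test of the fit set no limit on false calls.

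HSPA1B, the near copy of HSPA1A, had a smaller fitted change. ENST00000375650.5 was at 32, 33 and 26 CPM in vehicle replicates 1 to 3 and at 35, 39 and 42 CPM in UT-143 replicates 1 to 3. The groups did not overlap, with a gap of only 2 CPM between vehicle replicate 2 and UT-143 replicate 1. Its change was 0.34, with a 95% interval from 0.033 to 0.65 and an adjusted p of 0.16 in limma, and 0.28 without UT-143 replicate 3 (adjusted p = 0.19 in limma).

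Since reads of both genes may be mixed, their values were also summed, a choice made after seeing the data. The sum was 38, 39 and 31 CPM in vehicle replicates 1 to 3 and 44, 49 and 59 CPM in UT-143 replicates 1 to 3, again without overlap. Its change was 0.48, and 0.37 for UT-143 replicates 1 and 2 alone. An exact 2-sided permutation test of the sum gave p = 0.1, the smallest that 3 against 3 libraries can give. HSPA1A made up 15.8%, 15.4% and 16.1% of the sum in the vehicle libraries and 20.5%, 20.4% and 28.8% in UT-143 replicates 1 to 3. This share was higher in every UT-143 library than in every vehicle library (exact permutation p = 0.1). Rounding of both values by up to 0.5 CPM allows shares of 14.1% to 17.7% in the vehicle libraries and 19.3% to 29.7% in the UT-143 libraries, so the spread between the vehicle shares is smaller than rounding can resolve.

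HSPA8 encodes the Hsp70 that most cells make without stress. Its row with the higher level, ENST00000534624.6, was at 368, 373 and 387 CPM in vehicle replicates 1 to 3 and at 236, 266 and 334 CPM in UT-143 replicates 1 to 3. All UT-143 libraries lay below all vehicle libraries, and UT-143 replicate 3 was the nearest to them. The means were 376 ± 9.8 CPM and 278.7 ± 50 CPM (SD, n = 3 each). The change was -0.45 ± 0.15 (SE; adjusted p = 0.13 in limma), and without UT-143 replicate 3 it was -0.58 ± 0.066 (SE; adjusted p = 0.013 in limma). In UT-143 replicates 1 and 2 the mean was 0.668 of the vehicle mean, and in UT-143 replicate 3 the value was 0.888 of it. The other row, ENST00000227378.7, was at 356, 359 and 374 CPM in vehicle and at 229, 257 and 331 CPM after UT-143. It differed from the first by at most 3.75% in any library, and its change was -0.43 (limma, adjusted p = 0.15) and -0.58 without UT-143 replicate 3 (limma, adjusted p = 0.013). The rows therefore give 1 result, not 2.

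HSP90AA1 encodes the Hsp90 that responds more to stress. ENST00000216281.13 was at 493, 495 and 510 CPM in vehicle replicates 1 to 3 and at 490, 502 and 748 CPM in UT-143 replicates 1 to 3. UT-143 replicates 1 and 2 lay within or just under the vehicle range, and UT-143 replicate 3 was far above every other library, by 0.58 over the vehicle mean on the log2 scale. The change was 0.19 with a 95% interval from -0.26 to 0.63 (limma, adjusted p = 0.50). Without UT-143 replicate 3 it was -0.0096, with an interval from -0.10 to 0.083 (limma, adjusted p = 0.84). Its second row, ENST00000334701.11, was 14 to 17 CPM lower in each library, with a change of 0.19 and of -0.011 without UT-143 replicate 3.

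HSP90AB1, the more constitutive Hsp90, was slightly lower in every UT-143 library. ENST00000371646.10 was at 457, 455 and 432 CPM in vehicle replicates 1 to 3 and at 397, 415 and 392 CPM in UT-143 replicates 1 to 3. The groups did not overlap, and UT-143 replicate 3 was close to the other UT-143 libraries. The change was -0.16 with a 95% interval from -0.37 to 0.057 (limma, adjusted p = 0.29), and -0.14 without UT-143 replicate 3 (limma, adjusted p = 0.091). Scaling between libraries moved it both ways, to -0.079 with trimmed mean scaling, -0.088 with median-of-ratios scaling and -0.32 with quantile normalization. The rows ENST00000353801.7 and ENST00000371554.2 differed from each other by 1 CPM in UT-143 replicate 1 and by 0 elsewhere, and the change of both was -0.14 with and without UT-143 replicate 3, which did not pass the test.

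HSPB1 encodes Hsp27, a small chaperone that keeps damaged proteins from clumping. ENST00000248553.7 was at 45, 40 and 38 CPM in vehicle replicates 1 to 3 and at 40, 41 and 85 CPM in UT-143 replicates 1 to 3. UT-143 replicates 1 and 2 lay inside the vehicle range, while UT-143 replicate 3 was 2.07 times the vehicle mean. The change was 0.34 ± 0.30 (SE; adjusted p = 0.47 in limma), and without UT-143 replicate 3 it was -0.014 ± 0.083 (SE; adjusted p = 0.92 in limma).

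HSPD1 is the only mitochondrial member, and its single listed row was low. ENST00000388968.8 was at 12, 15 and 14 CPM in vehicle replicates 1 to 3 and at 10, 11 and 4 CPM in UT-143 replicates 1 to 3. All UT-143 libraries lay below all vehicle libraries, by 1 CPM at the nearest, where each value is uncertain by up to 0.5 CPM. The change was -0.75 with a 95% interval from -1.59 to 0.091 (limma, adjusted p = 0.22), and -0.35 without UT-143 replicate 3 (limma, adjusted p = 0.094). HSPD1, like HSPA8 and the Hsp90 genes, has processed pseudogenes in the human genome, and how reads matching several places were counted is not given, so the level of this row is uncertain.

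**Figure D2:**
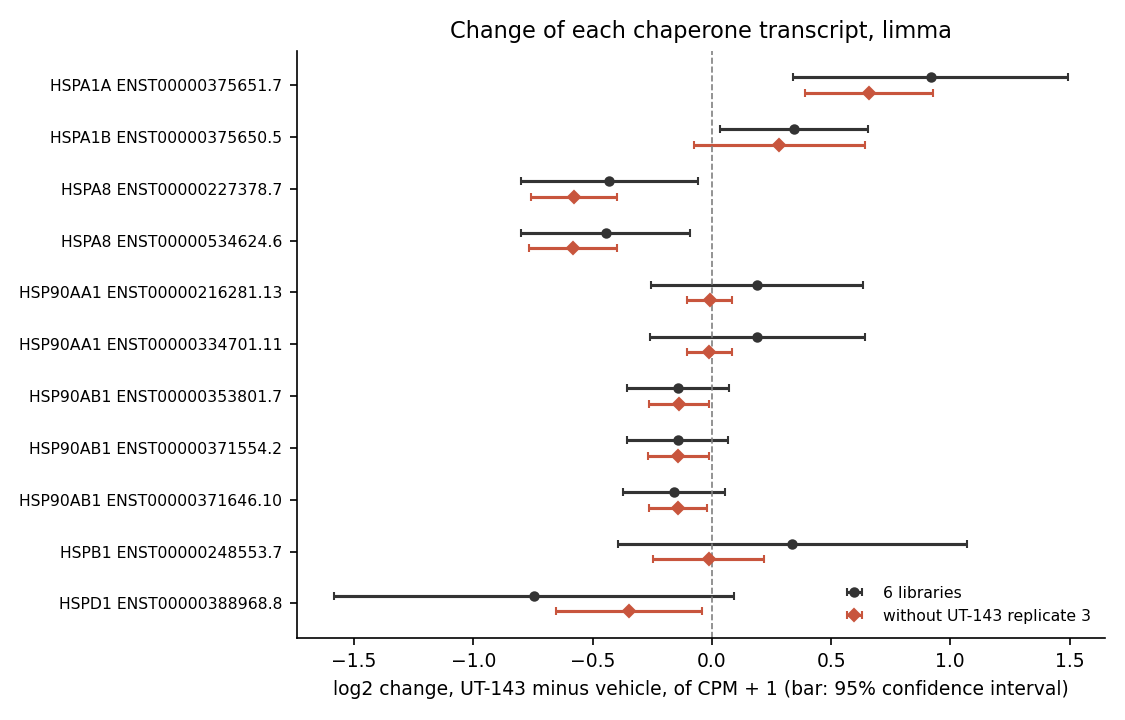
Change of each of the 11 rows, UT-143 minus vehicle, on the log2(CPM + 1) scale with its 95% confidence interval in limma, from 6 libraries (black circles) and without UT-143 replicate 3 (red diamonds). The intervals of HSP90AA1 and HSPB1 shrink around 0 without that library, and those of HSPA8 and HSPA1A stay on 1 side of 0 in both fits. Those of HSP90AB1 and HSPD1 lie below 0 only without that library, and that of HSPA1B lies above 0 only with 6 libraries. The intervals are not adjusted for the number of rows tested, and none of the 11 rows passed the adjusted test with 6 libraries.

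By gene, the UT-143 libraries lay entirely above vehicle for 2 (HSPA1A and HSPA1B), entirely below for 3 (HSPA8, HSP90AB1 and HSPD1) and overlapped it for 2 (HSP90AA1 and HSPB1). By row these were 2, 6 and 3 of 11. Over all rows of the table, 13.1% lay entirely above and 22.3% entirely below. The rows of 1 gene are near copies of each other, so the 6 rows below stand for 3 genes.

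UT-143 replicate 3 differed from UT-143 replicates 1 and 2 in opposite directions among the chaperones. On the log2 scale it was higher by 1.05 for HSPB1, 0.78 for HSPA1A, 0.59 for HSP90AA1, 0.41 for HSPA8 and 0.18 for HSPA1B. It was near them for HSP90AB1, with a difference of -0.050, and lower for HSPD1, with -1.20. Of all rows, 0.897% had a difference as high as that of HSPB1 or higher, 5.11% as high as HSPA1A and 10.6% as high as HSP90AA1, and 5.40% were as low as HSPD1 or lower. For HSPA8 this share was 19.2% and for HSPA1B 30.8%, so the constitutive HSPA8 lay above the inducible HSPA1B in this order. HSP90AB1 lay near the middle of the distribution. This describes 1 library, with no replicate check, and what sets that library apart was not tested.

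**Figure D3:**
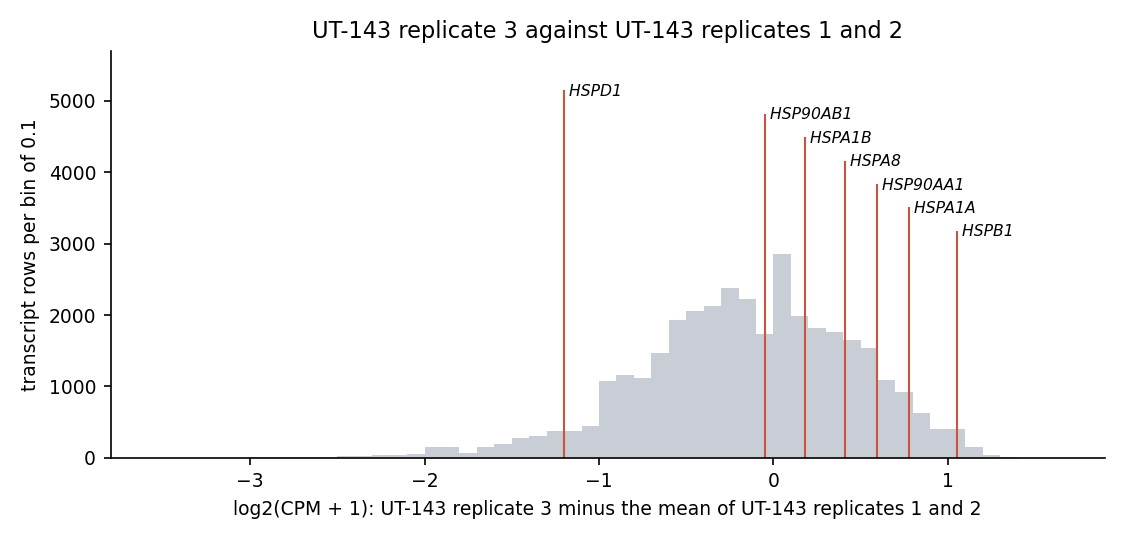
Histogram over all 35246 rows of the log2(CPM + 1) difference between UT-143 replicate 3 and the average of UT-143 replicates 1 and 2, showing 1 row per chaperone gene as red lines. HSPB1 lies far to the right at 1.05, HSP90AB1 near 0 and HSPD1 far to the left at -1.20.

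Chaperones were also compared with each other inside each library, where any factor that scales a whole library almost cancels. In all, 3 pairings of genes were compared, by 1 row each, with exact 2-sided permutation tests that cannot go below p = 0.1. The log2 difference of HSPA1A minus HSPA8 was -5.72, -5.74 and -6.01 in vehicle replicates 1 to 3 and -4.57, -4.60 and -4.22 in UT-143 replicates 1 to 3. The groups were far apart, and UT-143 replicates 1 and 2 were close to each other. HSPA1A enters at 5 or 6 CPM in vehicle, where rounding limits how well the spread within a group is known. The HSPA1A to HSPA8 ratio was larger after UT-143 by 1.36 on the log2 scale, 2.57-fold, with an exact permutation p of 0.1 (0.15 adjusted over the 3 comparisons). Without UT-143 replicate 3 the difference was 1.24. With 6 libraries and 0.25 or 4 added to CPM in place of 1, it was 1.45 or 1.14. The size depends on which row stands for inducible Hsp70, a choice tried after seeing the data. With HSPA1B in place of HSPA1A it was 0.79 (1.73-fold), and 0.87 without UT-143 replicate 3. With the sum of HSPA1A and HSPA1B it was 0.92 (1.90-fold), and 0.95 without UT-143 replicate 3. Both have an exact permutation p of 0.1 with 6 libraries.

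The difference of HSP90AA1 minus HSP90AB1 was 0.11, 0.12 and 0.24 in vehicle replicates 1 to 3 and 0.30, 0.27 and 0.93 in UT-143 replicates 1 to 3. The UT-143 libraries lay above vehicle, but UT-143 replicates 1 and 2 only just. The change was 0.35 (exact permutation p = 0.1, adjusted 0.15) and 0.13 without UT-143 replicate 3. HSPD1 minus HSPA8 was -4.83, -4.55 and -4.69 in vehicle and -4.43, -4.48 and -6.07 after UT-143. UT-143 replicates 1 and 2 were above the vehicle libraries and UT-143 replicate 3 far below, so the change of -0.30 (exact permutation p = 1) became 0.24 without that library.

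**Figure D4:**
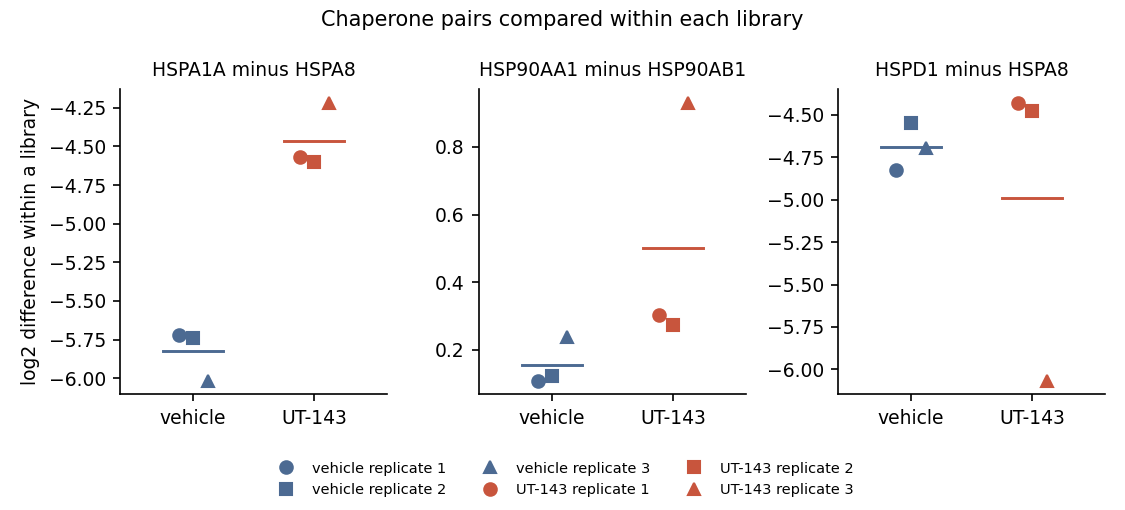
Within-library log2 difference between both genes of each pairing, with 1 mark per library and lines at the group means. For HSPA1A minus HSPA8 the 3 UT-143 libraries lie at -4.60 to -4.22, all above the vehicle libraries at -6.01 to -5.72. In the other pairings UT-143 replicate 3 (red triangle) sets most of the spread.

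Rows with a pattern like the mean of the 7 genes were sought among 10899 other rows with a mean of at least 20 CPM. The highest Pearson correlations over the 6 libraries were 0.990 for ENST00000547104.1 and 0.988 for ENST00000550097.1, which no table used here pairs with a gene. ENST00000547104.1 was at 61, 62 and 54 CPM in vehicle and at 49, 59 and 91 CPM after UT-143. ENST00000550097.1 was at 60, 60 and 52 CPM in vehicle and at 48, 57 and 83 CPM after UT-143, so both rows show nearly the same pattern. UT-143 replicate 3 was the highest library of both, as in the mean of the 7 genes. Without UT-143 replicate 3 the correlations over 5 libraries were 0.945 and 0.941. The rows were picked with these 5 libraries included, so those values are no separate check. The likeness is a description with no test.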

How the data were processed

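Of the 18 samples, the 6 with RNA sequencing of 22RV1 were used, and the 12 with ATAC-seq were not analysed here. The deposited values are named CPM per the labels and are whole numbers, so they were treated as a normalized score that the authors rounded. FastQC, HOMER, STAR 2.7.10a and the build hg38 appear in the submitters' processing notes. The sources used here do not give how transcripts were counted, whether strand was used or what became of shared reads.

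Groups and replicate numbers came from titles, and columns were matched by the identifier in each description. Values were transformed as log2(CPM + 1) and fitted over all 35246 rows with limma 3.58.1 in R 4.3.3, with group as the only term, a mean-variance trend and Benjamini-Hochberg adjustment. A filter of 1 CPM in at least 3 libraries removed 0 rows. No row sums to less than 30 CPM over the 6 libraries, so low transcripts are not listed. The fit was tested on simulated data, with a limit on false calls only for rows with a mean of at least 10 CPM. The motif search was checked on 1 made-up sequence. Figures were drawn with Matplotlib 3.10.9.

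The members, lists and tests were chosen with earlier results of these data known. Every listed member was named, plus the 2 other rows with the most similar pattern. The 33 other chaperone genes and the cell type markers that had been listed by symbol were not used, since 0 identifiers matched the gene tables. Alternatives changed the pseudocount, filter, scaling, moderation or threshold, kept 1 row per distinct set of values, blocked on the replicate number, or left out 1 library at a time.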

Additional observations from a re-analysis of the deposited data

How the results depend on the processing

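With 6 libraries and the values as deposited, 0 chaperone rows were higher and 0 lower. Quantile normalization gave 1 higher (HSPA1A, adjusted p = 0.0496 in limma) and 2 lower (HSPA8), and an adjusted p under 0.1 gave 1 higher. Leaving out 1 library gave 0 to 1 higher and 0 to 2 lower, with calls only without UT-143 replicate 3. In the other 5 such fits 0 of all 35246 rows passed, so they say nothing about the chaperones. That fit with trimmed mean scaling, added after seeing the data, gave 2 higher (HSPA1A and HSPA1B) and 3 lower (both rows of HSPA8, and HSPD1). Of 197 single-row changes under other settings, 3 had the opposite direction, all without UT-143 replicate 3: -0.0096 and -0.011 for the rows of HSP90AA1 and -0.014 for HSPB1. With 1 library left out, the HSP90AA1 rows ran up to 0.30 each and HSPB1 up to 0.52. The difference HSPD1 minus HSPA8 ran from -0.58 to 0.24 when 1 library was left out, with 0.24 without UT-143 replicate 3. The cause was not tested. A filter at a mean of 10 CPM leaves out HSPA1A, which then has no value.

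Deviations of same-numbered libraries from their group means correlated across rows at -0.41, 0.52 and 0.039. UT-143 replicate 3 sets most of the deviations in its group, so these values cannot show whether same-numbered samples were paired. Across groups, only the libraries numbered 2 were each closest to their own number. With the replicate block, 0 chaperone rows were higher and 0 lower, and over all rows 0 passed in limma with 7941 at an unadjusted p under 0.05. The 3 comparisons between genes have the same values by construction under the replicate block, 1.36, 0.35 and -0.30, with exact sign-flip permutation p of 0.25, the smallest possible, 0.25 and 1. Rounding limits HSPA1A and HSPD1.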
